A study of Mus musculus with 25 samples.

Results

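The comparison was of mouse morulae cultured with VCD, a small molecule, against morulae cultured with PBS, a buffered salt solution that served as the control. All genes with at least 1 FPKM (fragments per length of transcript and per library total) in at least 4 of the 8 morula libraries were taken, which gave 9959 of the 34228 genes in the embryo table. A further 7216 genes were listed at 0 in all 8 libraries. At the edge of the rule, 493 genes reached 1 FPKM in exactly 4 libraries and 527 in exactly 3, and the latter were left out. Of the genes taken, 8442 were protein-coding, 877 were pseudogenes, 213 were long intergenic noncoding RNAs, 49 were small nucleolar RNAs and 32 were small nuclear RNAs.

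The morulae were C57BL/6 embryos from in vitro fertilization that lasted 6 h, grown in G1 medium and, before morula formation, moved to G2 medium after 72 h. Per the labels the agent was in the culture medium, and the 4 VCD and the 4 PBS libraries carried no other labelled difference. The labels give neither the full name of VCD nor its dose, the ages of the animals, how many embryos went into a library, or whether replicates were separate cultures. The p-values therefore measure only the spread between these samples, which may be technical. Libraries were made by Smart-seq2, which copies whole mRNAs of single cells or a few cells into cDNA and amplifies it, and the series of 25 libraries also held 2-cell embryos and metaphase II oocytes with the same agents.

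At the morula stage the cells of the embryo flatten against one another, take up an inside or outside position and begin to separate into the future inner cell mass and trophectoderm. Hippo signalling, which reads cell polarity and contact, sets whether Yap1 and Tead4 switch on Cdx2 and Gata3 in outer cells, while Pou5f1 and Nanog mark the pluripotent inner cells. Stored maternal RNA has mostly been replaced by RNA of the embryo's own genome by then.

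The libraries held the genes of that stage. Nanog lay at 16.1 to 30.2 FPKM in PBS libraries and at 15.9 to 29.7 in VCD libraries, against at most 0.451 in any of the 8 libraries of 2-cell embryos. Krt18, a keratin of the outer cells, ranged from 76.3 to 108 and from 74.003 to 147 FPKM, against at most 4.402 at the 2-cell stage. Zscan4d, which is switched on at the 2-cell stage, had at most 2.02 FPKM in any morula library against at least 188 in 2-cell embryos. The labelled stage and these markers thus pointed the same way in both groups. Sox2, an inner cell factor, was at or near 0, with at most 0.0845 FPKM, and Sox17 was listed at 0 in all 8 libraries.

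Depth, worked out from the FPKM steps, was between 17230875 and 20998296 counted reads or fragments in the PBS libraries and between 15304093 and 17266923 in the VCD libraries, so 3 of the 4 VCD libraries lay below every PBS library. Pearson's r across genes was 0.935 to 0.973 between PBS libraries, 0.925 to 0.958 between VCD libraries and 0.940 to 0.967 between a PBS and a VCD library. Genes are not independent replicates, so these values describe the libraries only. The first principal component, with 26.9% of the variance, had 2 VCD libraries at its ends, replicates 1 and 2. The median SD between libraries was 0.29 with PBS and 0.35 with VCD on the log2(FPKM + 1) scale, and 60.9% of the genes had the larger SD with VCD.

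One gene differed between the agents past the threshold. Gm25332, annotated as a small nuclear RNA gene, stood at 0 in every PBS library and at 4.41, 3.54, 4.98 and 4.24 FPKM in VCD replicates 1 to 4. Small nuclear RNAs are short RNAs, most of them parts of the spliceosome, the machine that removes introns. Copies of their genes are scattered through mammalian genomes in large numbers, and many are not known to be functional. The gene (ENSMUSG00000088663) lies on chromosome X from 92882451 to 92882555 on the plus strand of GRCm38, in the GENCODE M21 annotation, as a single exon of 105 bases.

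The sequence of Gm25332 is shown beside that of Gm23504, the small nuclear RNA gene of next smallest p, which did not pass. Both are the GENCODE M21 transcripts, 5′ to 3′, written as DNA, and capitals mark bases that differ between them, or have no partner, in a global alignment.
Gm25332: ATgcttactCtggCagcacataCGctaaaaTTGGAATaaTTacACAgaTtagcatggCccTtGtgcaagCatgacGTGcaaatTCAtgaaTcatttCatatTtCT
Gm23504: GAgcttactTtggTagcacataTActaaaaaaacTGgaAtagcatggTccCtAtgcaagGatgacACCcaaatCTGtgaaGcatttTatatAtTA
The 2 transcripts had the same base in 71 of the 105 columns of the alignment (67.6%), and each sequence belongs to 1 of the 1383 annotated small nuclear RNA genes. None of the 50-base words of either gene occurs in the transcripts of another annotated gene.

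The difference between VCD and PBS by limma's moderated test on log2(FPKM + 1) was 2.40 for Gm25332 (SE 0.18, Benjamini-Hochberg adjusted p = 0.000408). The gene reached 1 FPKM in the 4 VCD libraries and in no PBS library, so it met the filter through VCD alone and its groups had to differ once it was tested. With no filter, over 27012 genes, the limma adjusted p was 0.00873. The difference of 2.40 depends on the 1 added to each FPKM and is no fold change, since the PBS group was at 0. The FPKM corresponded to 6 to 8 reads in each VCD library, 29 in all, and to 0 in each PBS library. Smart-seq2 copies mRNAs, and whether reads at this and other small RNA genes came from the small RNAs themselves was not tested. With limma-voom on the recovered reads the gene did not pass (adjusted p = 0.822). When 1 VCD library was left out and the filter applied anew, Gm25332 reached 1 FPKM in only 3 libraries and was not tested. In bulk libraries of whole embryos, fewer cells of a type and less RNA per cell cannot be told apart.

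In 2-cell embryos Gm25332 was present with both agents, at 7.28, 6.63, 9.98 and 6.78 FPKM in PBS replicates 1 to 4 and 15.2, 6.87, 3.54 and 2.15 in VCD replicates 1 to 4. The 2-cell groups overlapped. In oocytes, whose table was normalized separately, it ranged from 5.76 to 12.8 FPKM over all 9 libraries. PBS morulae were thus the only group of the 6 in which it was listed at 0.

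**Figure D1:**
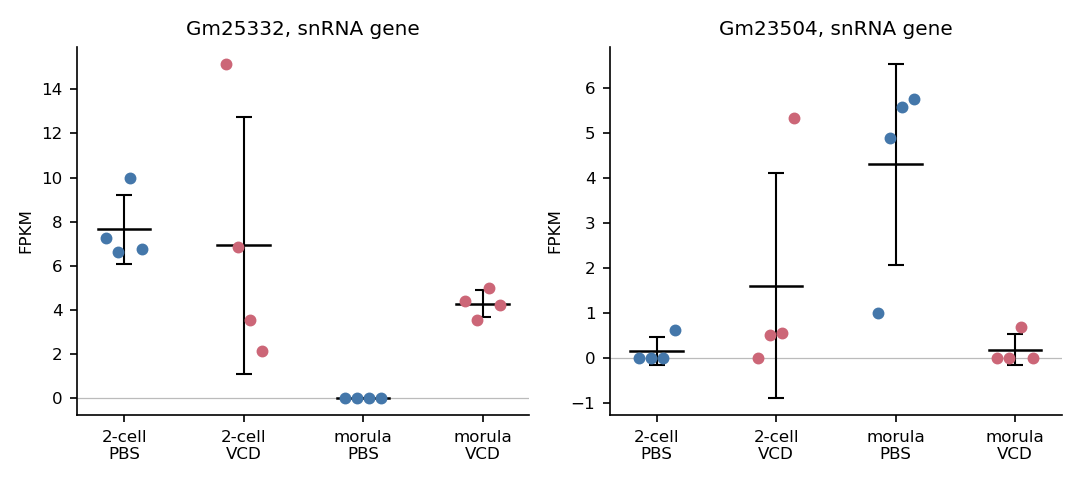
FPKM (vertical axis) of the small nuclear RNA genes Gm25332 and Gm23504 in 2-cell embryos and morulae with PBS (blue) and VCD (red). Each point is a library, and the bars give the mean and SD of 4 libraries. Gm25332 sits at 0 in all 4 PBS morula libraries and between 3.54 and 4.98 with VCD, while Gm23504 lies between 1.003 and 5.76 with PBS and at or below 0.688 with VCD.

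The 1 gene called was 0.01% of the 9959 tested. An unadjusted limma p below 0.05 was found for 311 genes (3.12%). The FPKM of the 2 groups did not overlap for 203 genes (2.04%), of which 118 were higher with VCD (1.18% of all tested) and 85 lower (0.853%). The median difference over all genes was −0.01 on the log2(FPKM + 1) scale, and 48.9% of the differences were positive. Differences above 1 were found for 30 genes and below −1 for 20.

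Among the 5832 genes with a mean of 5 FPKM or more, the 95% interval of the difference stayed within a 2-fold change in either direction for 5051 (86.6%). The test was also run on simulated data of the 9959 genes with the spread of these libraries. The changed genes were drawn only from those averaging 5 FPKM or more. Of their changes the test recovered 54% of 2-fold and 93% of 4-fold ones, and 17 of its 164 calls were of unchanged genes. The folds were set on the scale of the test, not on FPKM itself. Recovery among genes of lower level was not tested. A p that misses the threshold does not show that a gene was alike with both agents.

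**Figure D2:**
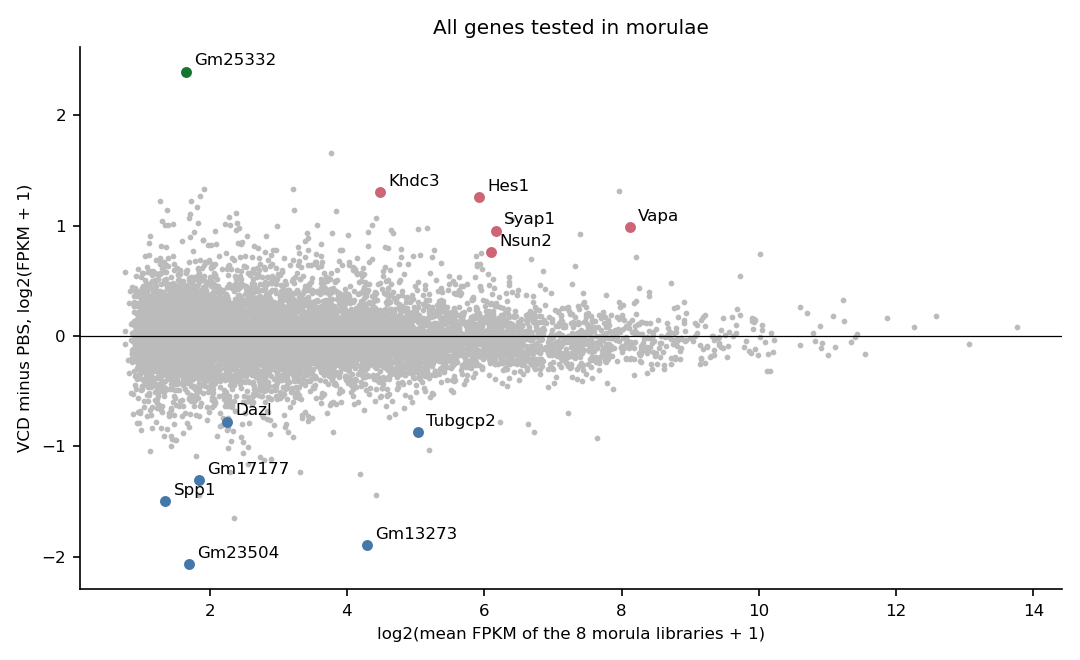
Difference between VCD and PBS on the log2(FPKM + 1) scale (vertical axis) against the mean level of the 8 morula libraries (horizontal axis, log2). Each grey point is 1 of the 9959 genes. Gm25332 (green) passed at an adjusted p of 0.000408, the red and blue points are genes named in the text that did not pass, and most genes lie close to 0.

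The genes next in order of p did not pass. They stand outside the naming rule and were chosen after their values were seen. Gm23504 (chromosome 1 from 87415255 to 87415349, minus strand, 95 bases) had 1.003, 4.89, 5.58 and 5.76 FPKM in PBS replicates 1 to 4 and 0, 0, 0.688 and 0 with VCD (difference −2.07, SE 0.38, limma adjusted p = 0.41). That amounts to 30 reads over the PBS and 1 over the VCD libraries. It reached 1 FPKM in the 4 PBS libraries alone, so it met the filter through that group, and PBS replicate 1 was near the VCD range. In 2-cell embryos it reached 5.34 FPKM in 1 VCD library and at most 0.624 in the other 7.

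Spp1, which encodes the secreted phosphoprotein osteopontin, had 1.705, 2.11, 4.63 and 2.79 FPKM with PBS and 0.0703, 0.451, 0.198 and 0.53996 with VCD (difference −1.49, SE 0.26, limma adjusted p = 0.388). It reached 1 FPKM in the 4 PBS libraries alone, so it met the filter through that group and its groups had to be separate. All 4 VCD libraries lay below 0.55 FPKM. Every 2-cell library held more Spp1 than any VCD morula library, with means of 5.14 ± 1.07 and 4.29 ± 3.09 FPKM (SD, n = 4). The pseudogene Gm17177 had 4.68, 4.83, 2.87 and 4.06 FPKM with PBS against 1.801, 1.05, 0.786 and 0.701 with VCD and shares 35.1% of its 50-base words with other genes, so its level is uncertain. Another pseudogene, Gm13273, had 25.8, 37.6, 24.3 and 28.6 FPKM with PBS and 11.7, 6.23, 11.9 and 2.399 with VCD (difference −1.90, adjusted p = 0.598), with groups far apart. It had at most 6.05 FPKM in 2-cell embryos of either agent.

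There were 5069 genes with a symbol of their own whose higher group averaged at least 5 FPKM. Of these, 70 were higher in every VCD library than in any PBS library and 38 were lower. Over all 9959 genes tested these counts were 118 (1.18%) and 85 (0.853%). Of the 5069 genes, the 12 of smallest p in each direction are described here, and their separation follows from that choice. None passed, with limma adjusted p between 0.598 and 0.99997. Values of replicates 1 to 4 are given in that order, and where 2 means follow each other the PBS mean stands first.

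Syap1, a synapse-associated protein gene on chromosome X, had 61.8, 43.7, 47.7 and 39.1 FPKM in PBS replicates 1 to 4 and 117, 90.9, 86.4 and 80.4 in VCD replicates 1 to 4 (difference 0.95, SE 0.19, adjusted p = 0.598 by limma). Khdc3, whose protein belongs to the subcortical maternal complex of oocytes and early embryos, had 12.5, 16.8, 12.1 and 6.73 FPKM with PBS against 22.1, 39.6, 31.8 and 28.6 with VCD (difference 1.30, SE 0.27, adjusted p = 0.649). Of the words of Khdc3 34.1% occur in other genes, among them Gm20509, so its level is uncertain. Khdc3 was listed at no more than 0.235 FPKM in any 2-cell library and 1.34 in any oocyte library. It passed only when all 16 embryo libraries shared 1 estimate of the spread (adjusted p = 0.0403). Hes1, a repressor of transcription that Notch and other signals switch on, had 50.99, 30.2, 40.5 and 20.97 FPKM with PBS against 100.4, 76.5, 99.4 and 60.04 with VCD (difference 1.26, SE 0.27, adjusted p = 0.764). The lowest VCD library of Hes1 stood at 60.04 FPKM and the highest PBS library at 50.99.

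Regulators of chromatin and RNA followed. Pcgf6, a subunit of a Polycomb repressive complex active in pluripotent cells, had 51.8, 47.9, 48.9 and 39.2 FPKM with PBS and 79.1, 71.1, 72.8 and 73.4 with VCD (difference 0.65, SE 0.15). Its VCD libraries spread little, with a mean of 74.1 ± 3.48 FPKM (SD, n = 4) against 46.9 ± 5.396. Raly, an RNA-binding protein, had 4.61, 3.53, 2.98 and 4.54 FPKM with PBS against 8.76, 8.23, 6.61 and 9.19 with VCD. Nsun2, which methylates cytosines in RNA, had 46.6, 54.1, 50.6 and 46.6 FPKM with PBS against 67.7, 89.7, 75.4 and 109.5 with VCD. Thap11, a transcription factor of pluripotent cells, had 11.05, 13.7, 12.96 and 11.6 FPKM with PBS against 20.3, 25.7, 21.9 and 15.9 with VCD. The difference was 0.91 for Raly, 0.76 for Nsun2 and 0.71 for Thap11.

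Vapa, which anchors contacts between the endoplasmic reticulum and other membranes, had 232, 216, 228 and 96.9 FPKM with PBS and 354, 354, 367 and 375 with VCD. The 4 VCD libraries lay within 354 to 375 FPKM, while PBS replicate 4 stood far below the other PBS libraries. Slc30a5, a zinc transporter, had 12.7, 9.62, 11.3 and 7.27 FPKM with PBS against 18.9, 22.9, 15.1 and 23.2 with VCD. Zfand5, a zinc finger protein that acts with the proteasome, had 17.4, 13.02, 11.99 and 8.73 FPKM with PBS against 36.9, 21.1, 32.7 and 21.4 with VCD. Hccs, the X-linked enzyme that attaches heme to cytochrome c, had 16.6, 13.7, 19.02 and 14.6 FPKM with PBS against 24.7, 33.7, 23.2 and 34.4 with VCD, with 24.5% of its words in other genes. Ccdc117 had 84.02, 84.3, 74.4 and 64.1 FPKM with PBS against 120.3, 122, 103 and 159 with VCD. These differences ran from 0.70 for Ccdc117 to 1.07 for Zfand5.

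The lower group was led by genes of low level. Platr22, a noncoding RNA found in pluripotent cells, had 4.01, 4.31, 5.603 and 6.54 FPKM with PBS and 2.33, 1.53, 3.72 and 2.16 with VCD (difference −0.85, SE 0.24). Dazl, an RNA-binding protein of germ cells, had 5.76, 5.17, 5.96 and 3.202 FPKM with PBS against 2.76, 1.998, 2.998 and 2.16 with VCD (difference −0.77, SE 0.22). Dazl stood at 434 ± 11.5 FPKM (SD, n = 4) in 2-cell embryos with PBS, so the morula values were far below that level with either agent. Tubgcp2, a subunit of the complex that starts microtubules, had 51.5, 37.97, 32.8 and 40.8 FPKM with PBS against 17.5, 32.6, 13.5 and 27.3 with VCD (difference −0.87, SE 0.27).

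Stard4, which carries cholesterol between membranes, had 24.997, 25.5, 43.4 and 30.6 FPKM with PBS and 12.98, 24.4, 18.1 and 19.4 with VCD. Pdhx, a structural subunit of pyruvate dehydrogenase, had 26.3, 32.7, 32.7 and 28.2 FPKM with PBS against 18.6, 20.95, 20.1 and 25.2 with VCD. Ddah1, which breaks down methylated arginine, had 36.2, 47.7, 43.6 and 44.2 FPKM with PBS against 30.3, 34.6, 20.3 and 32.5 with VCD. Each of these 3 had separate groups, with differences of −0.70, −0.48 and −0.55. Resf1, which takes part in silencing retroelements, had 27.4 ± 3.32 FPKM with PBS and 18.6 ± 3.12 with VCD (SD, n = 4 each). The forkhead factor Foxf1 had 12.3, 16.8, 13.9 and 18.03 FPKM with PBS against 13.2, 8.403, 8.09 and 8.76 with VCD, and here VCD replicate 1 overlapped the PBS range. Stxbp6, a regulator of membrane fusion, overlapped through VCD replicate 2, with 4.53, 3.54, 5.46 and 6.596 FPKM with PBS against 2.996, 3.84, 2.13 and 1.62 with VCD. Mtss1, Dio1 and Commd7 completed the 12, with differences of −0.68, −0.68 and −0.46. Stxbp6 and Foxf1 were the 2 of the 12 whose groups overlapped.

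**Figure D3:**
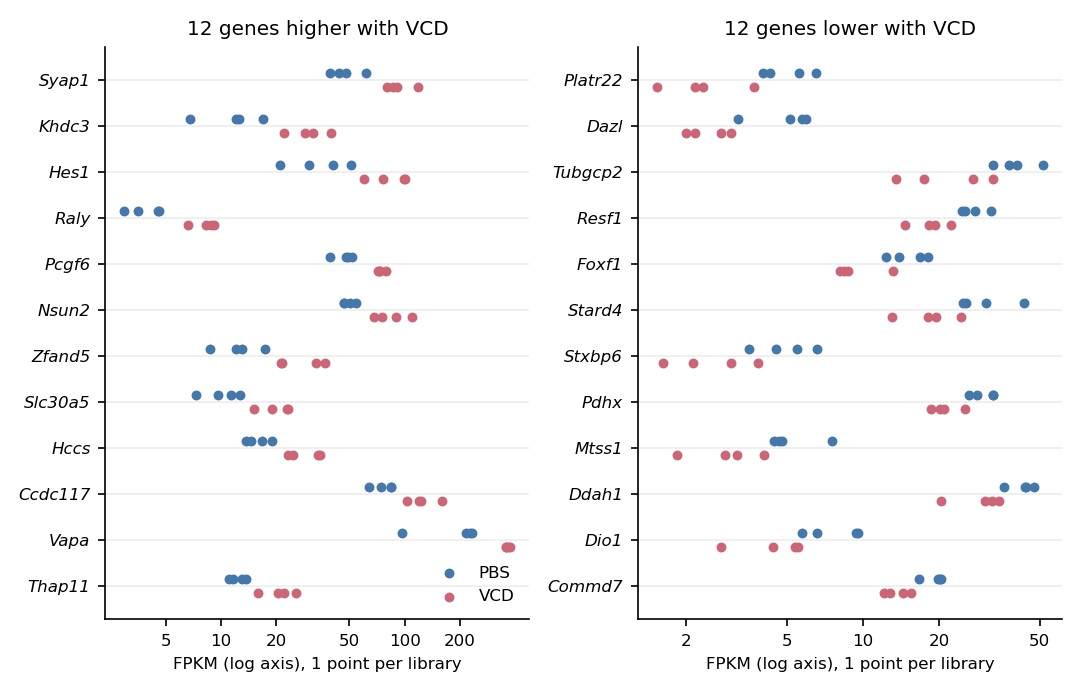
FPKM on a log axis of the 12 genes higher (left) and the 12 genes lower (right) with VCD of smallest p. Each point is 1 of 4 PBS (blue) or 4 VCD (red) morula libraries. The colours do not mix for any gene on the left, and they mix for Foxf1 and Stxbp6 on the right; no gene shown passed the adjusted threshold.

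The lineage genes showed no call. In the gene lists from here on, the genes described include those of smallest p, so their separation follows in part from that choice. Of 21 tested members of the inner cell mass and pluripotency list 8 were positive (median −0.03), and of 18 trophectoderm members 11 were positive (median 0.06), beside 48.9% and a median of −0.01 over all genes. Nanog had 16.1, 26.4, 19.7 and 30.2 FPKM with PBS and 17.8, 29.7, 18.2 and 15.9 with VCD. Cdx2, the factor of the outer lineage, had 1.83, 5.21, 2.65 and 5.04 FPKM with PBS against 1.49, 7.33, 2.399 and 4.75 with VCD. Both genes varied widely between libraries of the same agent, and the groups overlapped. The 95% interval of the difference ran from −0.72 to 0.38 for Nanog and from −0.85 to 0.88 for Cdx2.

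Pou5f1, needed for the inner cells, had 27.7, 31.6, 17.2 and 26.1 FPKM with PBS and 24.96, 31.2, 31.2 and 31.6 with VCD. Its interval was narrower, from −0.22 to 0.69. Utf1, a chromatin protein of pluripotent cells and the list member of smallest p (0.0202 by limma, unadjusted), had 177, 182, 214 and 146 FPKM with PBS against 90.95, 196, 85.2 and 94.2 with VCD. VCD replicates 1, 3 and 4 lay below every PBS library, and replicate 2 lay among them. Klf5 had 64.6 ± 15.8 and 82.4 ± 16.4 FPKM (SD, n = 4 each), and Klf4 30.1 ± 10.8 and 29.03 ± 6.299. Esrrb, another pluripotency factor, had 4.39 ± 1.48 and 5.02 ± 1.09 FPKM.

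In the trophectoderm list, Krt8 had 24.6, 19.2, 16.8 and 23.7 FPKM with PBS and 22.5, 49.2, 44.9 and 18.7 with VCD, so VCD replicates 2 and 3 stood above the other 6 libraries. Krt8 shares 29.7% of its words with other genes, among them Krt8-ps. Its partner keratin Krt18 had 76.3, 108, 77.4 and 105 FPKM with PBS against 109, 133, 147 and 74.003 with VCD. Gata3 had 5.06, 12.3, 11.5 and 18.9 FPKM with PBS against 6.09, 16.6, 16.4 and 10.8 with VCD, and the galectin Lgals3 had 8.63 ± 1.67 and 11.9 ± 3.05 (SD, n = 4 each). Tead4, the partner of Yap1 on DNA, had 46.2 ± 6.35 and 43.8 ± 2.67 FPKM (SD, n = 4 each), with a 95% interval from −0.42 to 0.28.

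Of 21 Hippo pathway members tested 7 were positive, with a median of −0.07. Yap1 had 3.797, 8.39, 4.396 and 5.37 FPKM with PBS and 5.89, 4.55, 7.75 and 6.87 with VCD. Lats1, the kinase that keeps Yap1 out of the nucleus, had 3.01 ± 0.951 and 2.21 ± 0.536 FPKM (SD, n = 4 each), and Ccn1, a target gene of Yap1, 17.95 ± 9.57 and 22.2 ± 5.97. No Hippo member reached an unadjusted p below 0.05.

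The primitive endoderm and FGF list held 3 of 22 members with an unadjusted limma p below 0.05, all higher with VCD. The share over all genes was 3.12% in either direction. Of the 22 members 14 were positive (median 0.05), beside 48.9% over all genes. Dusp4, a phosphatase that FGF and ERK signalling switches on and that limits ERK, had 3.41, 8.35, 6.34 and 6.92 FPKM with PBS and 11.03, 11.3, 10.3 and 12.5 with VCD (difference 0.81, SE 0.24, adjusted p = 0.99997). The VCD libraries all lay above 10 FPKM and the PBS libraries below 8.4. Gata4, a factor of the primitive endoderm, had 3.64, 6.51, 3.27 and 4.67 FPKM with PBS against 6.19, 4.04, 13.2 and 13.1 with VCD, and only VCD replicates 3 and 4 stood apart. Gata6 had 22.6 ± 6.74 and 19.3 ± 3.81 FPKM (SD, n = 4 each), and the receptor Fgfr2 9.37 ± 1.73 and 8.05 ± 1.78.

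In the Notch list 12 of 20 tested members were positive, with a median of 0.18, and Hes1 alone had an unadjusted p below 0.05. The receptors Notch1 and Notch2 had at most 0.462 and 0.624 FPKM in any morula library and were not tested. The ligand Jag2 had 1.72, 2.02, 1.902 and 3.01 FPKM with PBS and 1.65, 2.74, 3.98 and 2.39 with VCD. Rbpj, the DNA-binding protein of the pathway, was low, with 1.42, 2.02, 1.704 and 2.08 FPKM with PBS against 1.54, 1.49, 1.57 and 2.28 with VCD. The other Notch targets Hey1, Heyl and Nrarp had at most 1.65, 0.141 and 0.111 FPKM in any morula library. The fringe enzyme Rfng, which modifies Notch receptors, had 12.7 ± 2.23 and 16.8 ± 3.82 FPKM (SD, n = 4 each).

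Compaction and the later cavity depend on cell contacts, polarity and ion pumps. Of 33 adhesion, polarity and junction genes 21 were positive (median 0.05), and of 10 pump, channel and gap junction genes 6 (median 0.06). Cdh1, the adhesion protein that draws the cells together at compaction, had 21.4, 33.4, 23.2 and 32.996 FPKM with PBS and 23.1, 30.8, 20.1 and 33.6 with VCD, with a 95% interval from −0.54 to 0.45. Rac1, a small GTPase of the actin skeleton, had 18.2, 12.5, 16.3 and 5.85 FPKM with PBS against 21.7, 37.3, 22.7 and 23.1 with VCD (difference 1.01, SE 0.32, adjusted p = 0.99997 by limma). The groups of Rac1 did not overlap, but 50.3% of its words occur in other genes. Jup, which links cadherins to the skeleton, had 3.06, 2.89, 2.35 and 4.58 FPKM with PBS against 3.98, 4.62, 6.64 and 5.24 with VCD. The water channel Aqp3 had 20.1, 24.5, 13.99 and 21.6 FPKM with PBS against 25.1, 29.1, 32.97 and 24.4 with VCD, and Aqp9 98.4 ± 21.1 and 102 ± 28.5 (SD, n = 4 each). Atp1b1, a subunit of the sodium pump, had 2.96 ± 0.653 and 3.42 ± 0.488 FPKM (SD, n = 4 each).

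**Figure D4:**
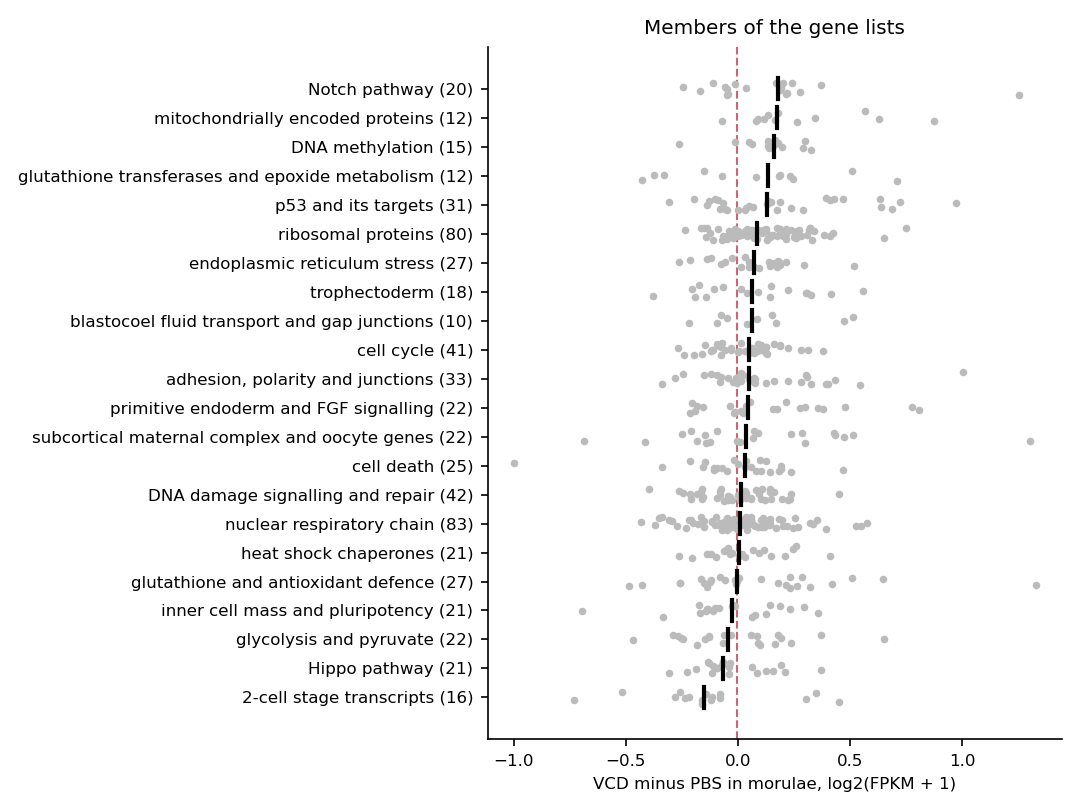
Difference between VCD and PBS on the log2(FPKM + 1) scale (horizontal axis) for the tested members of the gene lists with at least 10 tested members, whose number stands in brackets. Each grey point is a gene, black bars are list medians and the dashed line is the median of all 9959 genes, −0.01. The medians lie between −0.15 for the 2-cell stage transcripts and 0.18 for the Notch pathway.

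Genes of the defence against oxidants were next. Glutathione takes up reactive molecules, and its synthesis needs an enzyme with a catalytic subunit, Gclc, and a modifier subunit, Gclm. Of 27 tested members of the glutathione and antioxidant list 13 were positive, with a median of −0.01, the same as over all genes. Gclm had 9.34, 7.57, 7.96 and 6.85 FPKM with PBS and 11.8, 17.4, 13.2 and 10.2 with VCD (difference 0.65, SE 0.20, limma adjusted p = 0.99997). The groups did not overlap, with 9.34 as the highest PBS and 10.2 as the lowest VCD value. Gclc, in contrast, had 2.16, 2.05, 2.41 and 1.43 FPKM with PBS against 0.723, 1.17, 3.35 and 1.401 with VCD.

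Hmox1, which breaks down heme and is switched on by oxidants, had 7.398, 0.331, 6.02 and 2.63 FPKM with PBS and 17.5, 8.06, 22.2 and 1.92 with VCD (difference 1.33, SE 0.69, 95% interval −0.18 to 2.84). VCD replicates 1 and 3 stood above all others, and VCD replicate 4 below 3 of the 4 PBS libraries. The peroxiredoxin Prdx6 had 243, 229, 319.8 and 217 FPKM with PBS against 234, 219.5, 172 and 133 with VCD. Glutathione reductase, Gsr, had 30.3, 32.96, 36.5 and 23.6 FPKM with PBS against 29.8, 60.996, 33.95 and 59.4 with VCD, and Nfe2l2, the main activator of these genes, 2.95, 3.36, 11.8 and 5.06 with PBS against 4.24, 8.21, 13.3 and 5.19 with VCD. None of the last 3 genes had groups that were separate. Of 12 glutathione transferase and epoxide genes 7 were positive (median 0.13). Gstp2 had 0.866, 0.528, 0.413 and 1.71 FPKM with PBS against 2.03, 1.93, 2.21 and 1.73 with VCD, with 54.3% of its words in other genes, and Ephx3, an epoxide hydrolase, 0.495, 0.696, 0.593 and 1.95 with PBS against 1.898, 0.495, 1.88 and 2.896 with VCD.

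Of 31 genes of p53 and its targets 20 were positive, with a median of 0.13, and 4 had an unadjusted limma p below 0.05, each higher with VCD, beside 3.12% of all genes in either direction. Phlda3, an inhibitor of Akt, had 21.7, 20.8, 27.97 and 12.997 FPKM with PBS and 21.9, 44.7, 57.3 and 47.9 with VCD (difference 0.97, SE 0.31, adjusted p = 0.99997). VCD replicates 2, 3 and 4 lay above every PBS library and replicate 1 among them. Plk3, a stress kinase, had 11.9, 6.95, 6.99 and 7.12 FPKM with PBS against 15.1, 9.61, 19.1 and 13.3 with VCD, Ddit4, which restrains mTOR, 2.88, 2.02, 0.664 and 1.65 with PBS against 4.26, 2.43, 4.65 and 2.43 with VCD, and Ei24 3.404, 6.02, 4.09 and 5.17 with PBS against 7.25, 4.49, 11.2 and 9.28 with VCD. Each of these 3 had overlapping groups. Trp53 itself, which encodes p53, had 30.5 ± 7.42 and 32.99 ± 4.91 FPKM (SD, n = 4 each). Cdkn1a, which stops the cell cycle, had 49.3, 71.7, 68.4 and 58.6 FPKM with PBS against 61.4, 73.9, 97.8 and 72.6 with VCD, with a 95% interval from −0.13 to 0.71. Mdm2, which degrades p53, had 56.1 ± 17.6 and 50.8 ± 15.5 FPKM (SD, n = 4 each).

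DNA damage and cell death genes lay near the median of all genes. Of 42 damage signalling and repair genes 23 were positive (median 0.01) and none had an unadjusted limma p below 0.05. Nbn, which senses double-strand breaks, had 23.4, 21.2, 21.2 and 28.5 FPKM with PBS and 14.7, 16.4, 21.98 and 17.8 with VCD, and Rad54l, which acts in recombination, 1.59 ± 0.491 and 2.54 ± 0.617 (SD, n = 4 each). Of 25 cell death genes 14 were positive (median 0.03). Bik, which promotes apoptosis, had 3.18, 0.739, 3.43 and 2.61 FPKM with PBS against 0, 0.394, 3.12 and 0.2696 with VCD, so 3 VCD libraries were below every PBS library and VCD replicate 3 was not. Bbc3, which also promotes apoptosis, had 2.13, 4.04, 1.57 and 2.19 FPKM with PBS against 3.27, 2.91, 5.599 and 3.29 with VCD.

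Of 27 endoplasmic reticulum stress genes 20 were positive (median 0.07), and of 21 heat shock chaperones 11 (median 0.01). Hspa5, which folds secreted proteins in the endoplasmic reticulum, had 47.6, 65.9, 77.7 and 84.01 FPKM with PBS and 65.9, 68.1, 97.4 and 68.8 with VCD. Calr, a calcium-binding chaperone, had 60.7 ± 13.6 and 73.7 ± 8.52 FPKM, and Atf4, a transcription factor of the stress response, 427 ± 85.4 and 354 ± 57.4 (SD, n = 4 each). Hsp90ab1, among the most abundant chaperones, had 1372, 1703, 1386 and 1166 FPKM with PBS against 1980.03, 1617, 1815 and 1341 with VCD, and Hsph1 33.6 ± 10.3 and 44.7 ± 10.6. No gene of either list had an unadjusted limma p below 0.05.

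In metabolism, 10 of 22 glycolysis and pyruvate genes were positive (median −0.05). The glucose transporter Slc2a3 had 4.19, 3.87, 4.59 and 5.84 FPKM with PBS and 5.56, 14.4, 7.77 and 5.64 with VCD, and VCD replicate 2 was the highest by far. Hexokinase 2, Hk2, had 5.03, 9.46, 11.8 and 10.8 FPKM with PBS against 5.93, 7.52, 5.27 and 5.98 with VCD. The groups overlapped for both. Of 83 nuclear genes of the respiratory chain 43 were positive (median 0.01); Ndufb6 of complex I had 2.897 ± 0.612 and 4.72 ± 1.102 FPKM and the X-linked Cox7b of complex IV 5.14 ± 1.28 and 7.79 ± 1.44 (SD, n = 4 each).

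Of 12 mitochondrially encoded genes 11 were positive (median 0.17), and 3 had separate groups, each higher with VCD, beside 48.9% positive and 1.18% separate and higher over all genes. In mt-Nd4l, of complex I, the FPKM were 1.76, 1.37, 1.96 and 1.29 with PBS and 2.53, 5.83, 4.18 and 2.996 with VCD, and mt-Co2, of complex IV, had 30.8, 29.8, 33.3 and 21.5 with PBS against 33.9, 54.8, 47.7 and 37.4 with VCD. At least 98.8% of the words of these 2 genes occur in other genes, so their levels are uncertain. Genes of the mitochondrial chromosome took 10.03% to 11.8% of all FPKM with PBS and 10.7% to 13.3% with VCD. Of 80 ribosomal protein genes 57 were positive (median 0.09). Rps2 had 827, 784, 1068 and 446 FPKM with PBS and 1562, 950.4, 1519 and 1091 with VCD, with 43.0% of its words in other genes, and its groups overlapped.

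The cell cycle list had 25 of 41 positive members (median 0.05). Cdk1, which drives entry into mitosis, had 10.1, 9.35, 8.82 and 8.21 FPKM with PBS and 11.98, 11.9, 11.2 and 11.1 with VCD, groups that did not overlap although the difference was small (0.31, SE 0.17). Plk1, a mitotic kinase, had 12.7 ± 2.63 and 17.4 ± 6.39 FPKM (SD, n = 4 each). In the DNA methylation list 13 of 15 members were positive (median 0.16), with no unadjusted limma p below 0.05. Dppa3, which protects methylation after fertilization, had 237, 234, 259 and 293 FPKM with PBS against 427, 215, 369.9 and 285 with VCD. VCD replicates 1 and 3 were the highest. The maintenance enzyme Dnmt1 had 2.33 ± 0.488 and 2.66 ± 0.335 FPKM, and its partner Uhrf1 1.14 ± 0.415 and 1.73 ± 0.781 (SD, n = 4 each).

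Genes of the oocyte and of the 2-cell stage were compared next. Of 22 genes of the subcortical maternal complex and other oocyte genes 12 were positive (median 0.04), Khdc3 at one end and Oosp1 at the other. Despite its place in this list, Khdc3 was listed far lower in 2-cell embryos, at no more than 0.235 FPKM, than in morulae. The level of Khdc3 is uncertain at both stages, as 34.1% of its words occur in other genes. Oosp1, an oocyte-secreted protein, had 3.04, 12.6, 12.05 and 5.41 FPKM with PBS and 3.22, 3.25, 5.92 and 4.51 with VCD, against 1382 ± 266 in 2-cell embryos with PBS (SD, n = 4). Of 16 transcripts typical of the 2-cell stage 13 were negative (median −0.15), none with an unadjusted limma p below 0.05. Among those described here, Tdpoz2 and Eif1a were on average higher in morulae than in 2-cell embryos, whose means with PBS were 7.11 ± 1.87 FPKM for Tdpoz2 and 14.8 ± 1.83 for Eif1a (SD, n = 4 each). In morulae Tdpoz2 had 67.1, 38.6, 36.5 and 26.9 FPKM with PBS against 23.1, 42.6, 12.5 and 46.5 with VCD, with 48.3% of its words in other genes, Eif1a 169 ± 34.9 and 138 ± 14.4 (SD, n = 4 each), and Zfp352 15.1, 5.41, 2.96 and 4.45 with PBS against 2.32, 0.163, 10.9 and 5.42 with VCD. The spread of Zfp352 between libraries of the same agent was larger than the difference between the agents.

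**Figure D5:**
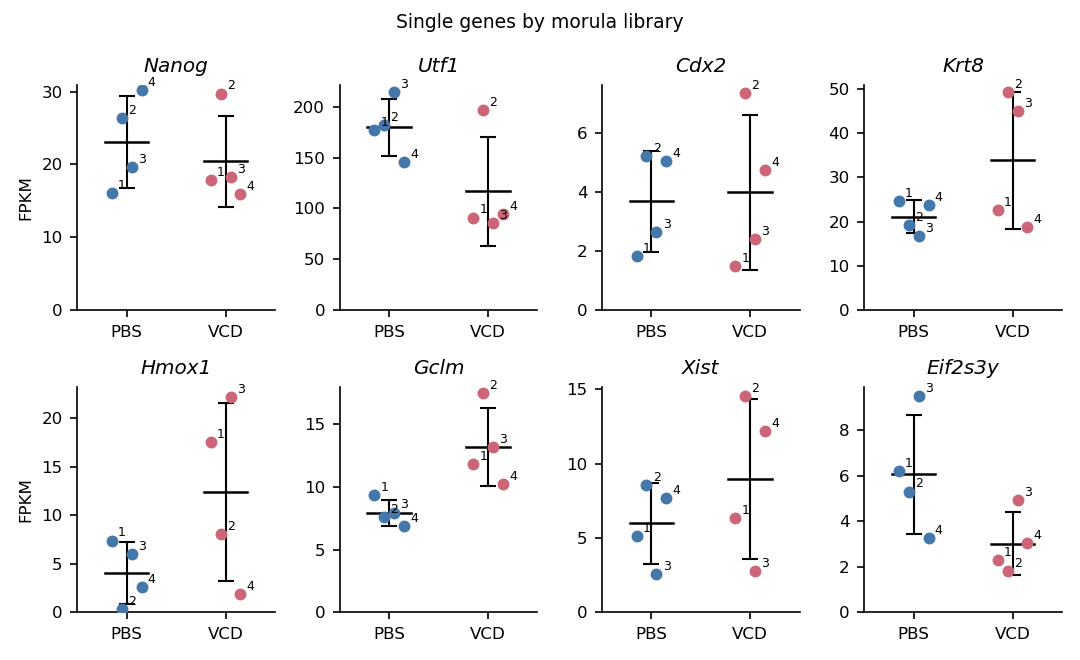
FPKM (vertical axis, from 0) of 8 genes in the 4 PBS (blue) and 4 VCD (red) morula libraries, with replicate numbers beside the points and bars for mean and SD. The groups of Gclm are separate, while those of Nanog, Utf1, Cdx2, Krt8, Hmox1, Xist and Eif2s3y overlap.

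Libraries of embryos hold male and female embryos in unknown shares, and this touches X-linked and Y-linked genes. Xist, the RNA that silences an X chromosome in female cells, had 5.14, 8.54, 2.56 and 7.68 FPKM with PBS and 6.36, 14.6, 2.75 and 12.2 with VCD. The Y-linked Eif2s3y had 6.203, 5.31, 9.52 and 3.25 FPKM with PBS against 2.297, 1.799, 4.93 and 3.06 with VCD (difference −0.80, SE 0.31), and the Y-linked Ddx3y 4.104, 3.896, 8.91 and 2.57 with PBS against 1.18, 2.701, 7.04 and 3.42 with VCD. All 8 libraries held both Xist and Y-linked RNA, and the groups overlapped. Syap1, Hccs and Gm25332 are X-linked; over all 326 X-linked genes tested the median difference was 0.06, 195 were positive, and 12 had separate groups (3.68%), beside a median of −0.01, 48.9% positive and 2.04% separate over all genes. The part of embryo sex in these results was not tested.

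Markers of other cells were measured in the same libraries, and Amhr2 and Pecam1 had the highest levels among those described. Among 19 measured cumulus and granulosa cell markers, 7 were listed at 0 in all 8 libraries, Fshr and Ptx3 among them, and only Amhr2 and Kitl were tested. The list summed to 10.8 to 15.4 FPKM in PBS libraries and 12.3 to 20.1 in VCD libraries, most of it Amhr2, with 13.9, 12.7, 11.01 and 7.91 FPKM with PBS against 17.9, 12.6, 8.55 and 15.8 with VCD. Of 9 sperm markers 4 were listed at 0, and Prm1 reached at most 0.528 FPKM. The sperm list summed to 4.87 to 6.98 FPKM with PBS and 2.14 to 5.67 with VCD, mostly from Ldhc (3.37 ± 1.06 and 2.27 ± 1.09, SD, n = 4 each) and Odf2 (1.74 ± 0.219 and 1.86 ± 0.911). Of 14 blood and fibroblast markers 2 were at 0, Ptprc and Col1a1 reached at most 0.00338 and 0.0508 FPKM, and the list summed to 15.7 to 26.8 with PBS and 12.7 to 26.3 with VCD. Pecam1, which had 13.9 ± 5.14 and 15.3 ± 7.51 FPKM (SD, n = 4 each), and Hba-a1, with 2.204 ± 0.631 and 2.09 ± 1.28, made up most of it. In the oocyte libraries with PBS, Odf2 lay at 12.4 to 16.5 FPKM, Pecam1 at 9.86 to 10.6, Ldhc at 0.936 to 2.30 and Amhr2 at 0. The cells of origin of these RNAs were not tested.

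Whether the difference between the agents in morulae departed from that in 2-cell embryos was tested as an interaction over the 16 embryo libraries. None of 14144 genes passed in limma (0%), while 502 had an unadjusted p below 0.05 (3.55%), and limma-voom on recovered reads called none either. On simulated data of the 14144 genes this test recovered 30% of 2-fold and 74% of 4-fold differences of FPKM + 1. The changed genes were again drawn from those averaging 5 FPKM or more, and 9 of 113 calls were made on unchanged genes. The difference between stages was 2.79 on the log2 scale for Gm25332 (SE 0.48, limma adjusted p = 0.176), −2.87 for Gm23504 (adjusted p = 0.571) and −2.77 for Gm13273 (adjusted p = 0.176). In 2-cell embryos Thap11 had 60.7 ± 5.32 FPKM with PBS and 43.5 ± 5.7001 with VCD (SD, n = 4 each), lower with VCD there and higher in morulae, and the stages differed by 1.18 (SE 0.21, adjusted p = 0.188).

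Hes1 showed the same reversal of means, with 7.06, 21.05, 14.9 and 12.3 FPKM in 2-cell embryos with PBS and 3.78, 7.44, 7.77 and 7.01 with VCD. The difference between the stages was 2.19 (SE 0.44, limma adjusted p = 0.429). For Gclm the 2-cell means were 3.19 ± 0.231 FPKM with PBS and 2.14 ± 0.419 with VCD (SD, n = 4 each), again in the opposite order to morulae, with a difference between the stages of 1.07 (SE 0.22, adjusted p = 0.429). Rac1 had 59.8 ± 8.46 and 37.9 ± 4.63 FPKM in 2-cell embryos and Vapa 83.4 ± 10.9 and 63.3 ± 14.2 (SD, n = 4 each), so that the means of both were lower with VCD at the 2-cell stage and higher at the morula stage. Neither passed, with limma adjusted p of 0.542 for Rac1 and 0.571 for Vapa. Thap11, Hes1, Gclm, Rac1 and Vapa were named through their morula values, which also enter the difference between stages. Not every gene named as higher in morulae had this opposite order. The means of Syap1, Hccs, Slc30a5 and Ccdc117 were higher with VCD at both stages. Their 2-cell differences were 0.20 (SE 0.33), 0.14 (SE 0.21), 0.05 (SE 0.23) and 0.03 (SE 0.11) in that order, each smaller than its SE.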

How the data were processed

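FPKM were deposited by the authors in 1 table of the embryo libraries and 1 of the oocytes; Bowtie2 2.2.3 and TopHat2 2.0.12 were used per the submitters' processing notes. No source names the counting tool or annotation, and the build there, galGal4, is a chicken build although all identifiers are mouse Ensembl genes. Symbols, lengths, coordinates and transcripts came from GENCODE M21 (GRCm38), which matched 34065 of 34228 identifiers. FPKM times exon length fell on whole reads, within 0.01, for 90.6% to 91.1% of values under 200 reads in the morula libraries, which gave the depths. Read numbers carry counting error only, since amplified copies of 1 molecule were not told apart.

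Genes with at least 1 FPKM in 4 of the 8 libraries were fitted with limma 3.58.1 in R 4.3.3, with a variance trend, on log2(FPKM + 1). This scale understates changes of low genes. The threshold was a p below 0.05 after Benjamini-Hochberg adjustment over all genes tested. The interaction used the 16 embryo libraries. The text names genes that passed, the 12 of smallest p in each direction with a mean of 5 FPKM or more and a name other than a predicted or clone name, the 2 of smallest p in each of 26 lists and a panel of lineage and stress genes; a few of these are not reported here. The comparison, lists and panel were chosen with earlier results of these data known. The script was tested on simulated data with 200 changed genes, all with a mean of 5 FPKM or more over the libraries used. Alternatives were other pseudocounts, filters and scalings, weights, limma-voom, a replicate block and leaving out libraries; leaving them out on a fixed set of genes was added after seeing the data.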

Additional observations from a re-analysis of the deposited data

Results flagged for a closer look

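In groups of 4 libraries, a library was singled out where its gap to the nearest of the others exceeded the share of the group's range that Dixon's 95% limit allows. Of 194 groups of 4 checked, 13 held such a library, and chance singles out about 1 in 20 groups. Among the genes higher with VCD, Vapa stood at 96.87 FPKM in PBS replicate 4, the next lowest PBS library being at 215.8. In PBS replicate 4, Commd7 was also low (16.6 FPKM against 19.78 or more), while Mtss1 (7.511 against 4.77 or less) and the epoxide hydrolase Ephx3 (1.948 against 0.6959 or less) were high. In PBS replicate 1 Plk3 was high (11.95 FPKM against 7.118 or less).

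With VCD, replicate 1 was high in Foxf1 (13.19 FPKM against 8.764 or less) and low in Pou5f1 (24.96 against 31.19 or more). VCD replicate 2 was high in Utf1 (196.3 FPKM against 94.23 or less) and in Rac1 (37.29 against 23.14 or less). VCD replicate 3 was high in Bik (3.118 FPKM against 0.3937 or less), in Bbc3 (5.599 against 3.292 or less) and in Hspa5 (97.43 against 68.81 or less). VCD replicate 4 was high in Ndufb6 (6.366 FPKM against 4.319 or less).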

How the results depend on the processing

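The comparison of morulae gave 1 call under most alternatives, Gm25332. It gave 3 calls when all 16 embryo libraries shared 1 fit (Gm25332 and Khdc3 higher, Gm17177 lower), and 0 with a minimum of 5 FPKM, which leaves Gm25332 untested, or with limma-voom on recovered reads. Leaving out 1 library gave 0 to 2 calls: 0 without any 1 VCD library, where Gm25332 falls under the filter, and 2 without PBS replicate 1 on the fixed set of genes (Gm25332 and Gm23504, each in that set only through the group where it is higher). The interaction with stage, 0 calls, gave 1 with a pseudocount of 0.1 and 1 after rescaling without mitochondrially encoded genes (Gm25332 in both), 2 with no filter (Gm26415 and 4930573H18Rik), and 0 to 2 when 1 library was left out: 2 without 2-cell VCD replicate 1 (Gm25332 and Halr1) and 1 without morula VCD replicate 4 (Gm13273). The labels do not say that replicate numbers pair the libraries. Correlations of same-numbered deviations were 0.33, −0.05, 0.05 and 0.38, and those between different numbers ran from −0.29 to 0.26. Numbers 1 and 4 thus had the highest values, and a pairing was neither shown nor excluded. With the replicate number as a block the morula comparison called 1 gene, Gm25332 (adjusted p = 0.0238), and the interaction called 1, Hes1 (adjusted p = 0.0172). Of 2565 values of named genes under alternatives none changed sign while called, 1 call was lost (Gm25332 with limma-voom) and 1 gained (Khdc3 in the fit of 16 libraries). Under every alternative run the median of the 2-cell transcripts was negative. Those of the Notch, p53, DNA methylation, endoplasmic reticulum stress and mitochondrially encoded lists were positive. On the fixed set of genes, the 2-cell median was −0.00056 without VCD replicate 2, and the p53 median 0.02 without VCD replicate 3. The alternatives reuse the same libraries, so a constant sign is not independent support. The medians of the other lists with 10 or more tested members took both signs. Depth limited the short genes: Gm25332 rested on 29 reads over 4 libraries.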

Other observations

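Small and long noncoding RNAs outside the naming rule were looked at after their values were seen. Of the 32 small nuclear RNA genes tested 14 had positive differences (median −0.11), and of the 49 small nucleolar RNA genes 21 (median −0.13), beside 48.9% and a median of −0.01 over all 9959 genes. Gm23910, annotated as a small nucleolar RNA, had 5.41, 12.8, 4.01 and 4.98 FPKM in PBS replicates 1 to 4 and 1.75, 0.469, 2.48 and 0.963 in VCD replicates 1 to 4 (difference −1.65, SE 0.36, limma adjusted p = 0.764). Its groups did not overlap, and PBS replicate 2 was the highest by far.

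Of the long intergenic noncoding RNAs, Gm40331 had 0.878, 0.802, 1.22 and 0.757 FPKM with PBS and 6.41, 2.57, 3.91 and 2.05 with VCD (difference 1.23, SE 0.28, limma adjusted p = 0.821). Gm4675 had 12.6, 10.9, 12.5 and 8.53 FPKM with PBS and 6.099, 6.88, 4.47 and 4.31 with VCD (difference −0.92, SE 0.21, adjusted p = 0.867). Gm40331 was higher and Gm4675 lower in 4 of 4 VCD libraries than in any PBS library, and neither passed. The pseudogene Gm42977 had 0.992, 0.806, 0.368 and 0.3803 FPKM with PBS and 2.82, 2.58, 2.27 and 2.65 with VCD (limma adjusted p = 0.388). It reached 1 FPKM in the 4 VCD libraries alone, so it met the filter through that group and its groups had to be separate. Of its 50-base words 49.5% occur in other genes, so its level is uncertain.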
